A study of Mus musculus with 2 samples.

Results

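The 8 genes described here encode secreted proteins that restrain Wnt signalling: *Sfrp1*, *Sfrp2*, *Sfrp4*, *Frzb*, *Wif1*, *Dkk2*, *Dkk3* and *Notum*. They were chosen by name, as a list drawn up with earlier results of these data known, and all 8 were found among the 31053 genes of the count files. They were followed in the droplet barcodes that held at least 3000 unique molecular identifiers (UMIs, the tags that count single RNA molecules) with at most 20% of UMIs from mitochondrial genes. The rule kept 6599 cells of the ApcMin library and 6569 cells of the VApcMinL library. ApcMin mice (ApcMin/+;Lef1 +/+) carry 1 mutant copy of *Apc*, the scaffold that holds β-catenin in check, and have unmodified *Lef1*. VApcMinL mice (ApcMin/+;Lef1 fl/fl;Villin-Cre) carry the same *Apc* allele and lose *Lef1*, a transcription factor that partners β-catenin, where Villin-Cre is active, which is the intestinal epithelium and not the stroma sorted here. All mice were C57BL/6 and 11 weeks old by the labels (the study's text also states a slightly younger age), and the labels call the deletion constitutive. Cells of the lamina propria, the connective tissue under the gut epithelium, were sorted as live cells without Ter119, EpCAM and CD45, the surface marks of red cells, epithelium and leukocytes. Each genotype has 1 library, and how many mice were pooled in it is not given in the sources used here. No difference between the libraries has a replicate check, so no p-values are given, and every interval below covers counting error only.

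Wnt proteins are lipid-bearing ligands that bind Frizzled receptors together with Lrp5 or Lrp6 and thereby stabilise β-catenin. The secreted frizzled-related proteins (the *Sfrp* genes and *Frzb*, also called *Sfrp3*) carry a Frizzled-like cysteine-rich domain and bind Wnt ligands outside the cell, as does *Wif1*, a Wnt inhibitory factor, through a domain of its own. *Dkk2* belongs to the Dickkopf family, which acts on the co-receptors Lrp5 and Lrp6, and *Dkk3* is its divergent member. *Notum* encodes an enzyme that strips the lipid from Wnt ligands. In the gut, stromal cells next to the crypt supply both Wnt ligands and their inhibitors, and *Wif1*, *Notum* and *Dkk2* are also known to be induced by Wnt signalling in *Apc*-mutant epithelium.

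The genes lie on separate chromosomes apart from *Dkk2* and *Sfrp2*, which share chromosome 3. By GENCODE vM21 on GRCm38, the build the authors used, *Wif1* (ENSMUSG00000020218) spans chr10:121033960-121100650 on the plus strand and *Notum* (ENSMUSG00000042988) spans chr11:120653788-120661175 on the minus strand. *Dkk2* spans chr3:132085292-132180304 (plus), *Dkk3* chr7:112116017-112159057 (minus) and *Sfrp1* chr8:23411502-23449632 (plus). *Sfrp2* spans chr3:83766321-83774316 (plus), *Sfrp4* chr13:19623104-19632994 (plus) and *Frzb* chr2:80411970-80447625 (minus). The RefSeq promoter table (GRCm38.p6) held 4 of the 8 genes: *Wif1*, *Dkk2*, *Sfrp2* and *Frzb*. The stretches before the annotated starts of *Wif1* and *Dkk2* are shown, because both genes had the largest ratios between the libraries that were measured in stromal sub-clusters 0 to 6, in the same small group of cells (sub-cluster 6, below), with that of *Sfrp2*, found mainly in other cells, for comparison. They are written 5′ to 3′ on the gene's strand, with capitals marking TATAAA or its reverse complement, the letters of a TATA box. All 3 lie on the plus strand: 206 bases at chr10:121033754-121033959 for *Wif1*, 250 at chr3:132085042-132085291 for *Dkk2* and 250 at chr3:83766071-83766320 for *Sfrp2*.
Wif1: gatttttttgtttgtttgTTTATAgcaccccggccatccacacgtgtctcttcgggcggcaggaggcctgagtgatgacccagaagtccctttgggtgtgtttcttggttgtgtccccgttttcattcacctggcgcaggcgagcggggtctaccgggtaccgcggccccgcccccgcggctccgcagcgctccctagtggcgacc
Dkk2: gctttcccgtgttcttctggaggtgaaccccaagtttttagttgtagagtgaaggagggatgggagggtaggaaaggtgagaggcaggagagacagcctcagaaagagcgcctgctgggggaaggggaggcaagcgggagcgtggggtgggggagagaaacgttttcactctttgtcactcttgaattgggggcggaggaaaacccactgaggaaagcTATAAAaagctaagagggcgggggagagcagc
Sfrp2: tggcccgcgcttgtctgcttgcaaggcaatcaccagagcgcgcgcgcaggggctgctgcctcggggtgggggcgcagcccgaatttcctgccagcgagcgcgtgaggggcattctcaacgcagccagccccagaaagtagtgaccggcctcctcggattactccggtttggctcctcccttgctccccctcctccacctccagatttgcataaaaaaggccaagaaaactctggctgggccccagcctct
TATAAA stood close to the *Dkk2* start and, reversed, at the far end of the *Wif1* stretch, and it was not found in that of *Sfrp2*. Of all 32851 promoter windows, 12.37% held these letters on either strand. The core letters recognised by Lef1 and its Tcf relatives (CTTTGAT, likewise CTTTGTT, and further CTTTGAA as well as CTTTGTA, on either strand, which do not overlap TATAAA) were in none of the 3 stretches shown nor in the 21 bases of *Frzb*, and in 14.84% of all windows, which were taken as the 250 bases before the start.

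The cells were clustered without the 8 genes, so no cluster was drawn on their values. Of 19 clusters, 6 had the fibroblast markers *Pdgfra*, *Dcn*, *Col1a1*, *Col1a2*, *Col3a1*, *Lum*, *Dpt* and *Col6a1* as their leading class, and all 8 markers were detected in each of them. They are called the Pdgfra+ clusters here. They held 3355 ApcMin cells (50.8%) and 3708 VApcMinL cells (56.4%), with medians of 13316 and 10640 UMIs a cell. The largest of them, cluster 0 (*Pi16*, *Has1*, *Mfap5*), kept no cell type name, because *Cfd*, also a marker of fat cells, stood among its 10 leading genes and none of the 8 fibroblast markers did. Reclustering gave 10 sub-clusters, called by number and leading genes: 0 (*Pi16*, *Ly6c1*, *Has1*), 1 (*Plau*, *Vtn*, *Col6a6*), 2 (*Grem1*, *Cldn10*, *Ackr4*), 3 (*Cxcl13*, *Ereg*, *Adamdec1*), 4 (*Mmp10*, *Agt*, *Fgfr2*), 5 (*Scg2*, *Thbs2*, *Fibin*), 6 (*Itgbl1*, *Thy1*, *Masp1*) and 9 (*Bmp7*, *Bmp5*, *Sox6*). In the 2 remaining sub-clusters, 7 and 8, 5 of the 10 leading genes were markers of other cell types. The plasma cell list made up 160317 and 102190 CPM (UMIs of a gene per 1000000 UMIs of the same cells) of sub-cluster 7, and the erythroid list 401522 and 406602 CPM of sub-cluster 8, in ApcMin and VApcMinL, and members are not described there. The other clusters held erythroid-, B-, plasma-, T-, myeloid-, endothelial-, glia-, smooth muscle-, mesothelial-, epithelial- and pancreas acinar-like cells, in spite of the sort.

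The 2 libraries held 93203061 and 101609269 UMIs, with medians of 10849 and 9111 UMIs in the cells kept. They shared 18 barcodes, of which 11 and 12 lay in the Pdgfra+ clusters. Just below the UMI limit (2700 to 3000 UMIs) lay 136 ApcMin and 227 VApcMinL barcodes with 128 and 343 UMIs of the 8 genes together, and just above it (3000 to 3300 UMIs) 130 and 206 barcodes with 193 and 450. Free RNA in empty droplets carried the members too, *Sfrp1* at 270.3 and 353 CPM and the other 7 at up to 30.6 CPM. Judged by hemoglobin and immunoglobulin genes, an upper estimate of free RNA in the Pdgfra+ clusters was 11.5% of UMIs in ApcMin and 5.84% in VApcMinL. Erythroid-like cells, which should lack these genes, showed a *Sfrp1* UMI in 4.10% of ApcMin and 8.54% of VApcMinL cells (medians of 9396 and 7356 UMIs), and each other member in under 1% of them. *Lef1* itself had 122 UMIs in the cells of ApcMin and 115 in those of VApcMinL. Which part of *Lef1* is deleted is not given in the sources used here, so 3′ counts of *Lef1* do not check the genotype labels.

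Most transcripts of the 8 genes lay in the Pdgfra+ clusters. These clusters took 59.7% of all UMIs in ApcMin and 55.2% in VApcMinL, and they held 96.4% and 95.0% of the *Sfrp1* UMIs, 95.4% and 95.1% of *Dkk2*, 93.8% and 94.3% of *Dkk3*. The shares were 95.1% and 93.2% for *Sfrp4* and 96.8% and 91.5% for *Frzb*. *Sfrp2* was at 84.0% (95% interval 81.0 to 86.6%) and 78.3% (95% interval 73.9 to 82.3%), and mesothelial-like cells held a further 12.4% and 14.0%. *Notum* and *Wif1* differed from these: epithelial-like cells held 53.8% and 92.8% of their ApcMin UMIs. *Notum* had 46.2% (95% interval 39.9 to 52.6%) of its ApcMin UMIs and 73.6% (95% interval 69.4 to 77.5%) of its VApcMinL UMIs in the Pdgfra+ clusters. *Wif1* had 6.19% (95% interval 3.24 to 10.6%) of its 194 ApcMin UMIs there, against 99.2% (95% interval 98.6 to 99.5%) of its 1790 VApcMinL UMIs. This rests on where the cells of sub-cluster 6, described below, are placed: when the libraries were clustered without integration, 144 of its 157 cells fell in a smooth muscle-like cluster, and the share of the Pdgfra+ clusters over both libraries was 2.72% for *Wif1* and 21.8% for *Notum*, against 90.1% and 64.1% with it.

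**Figure D1:**
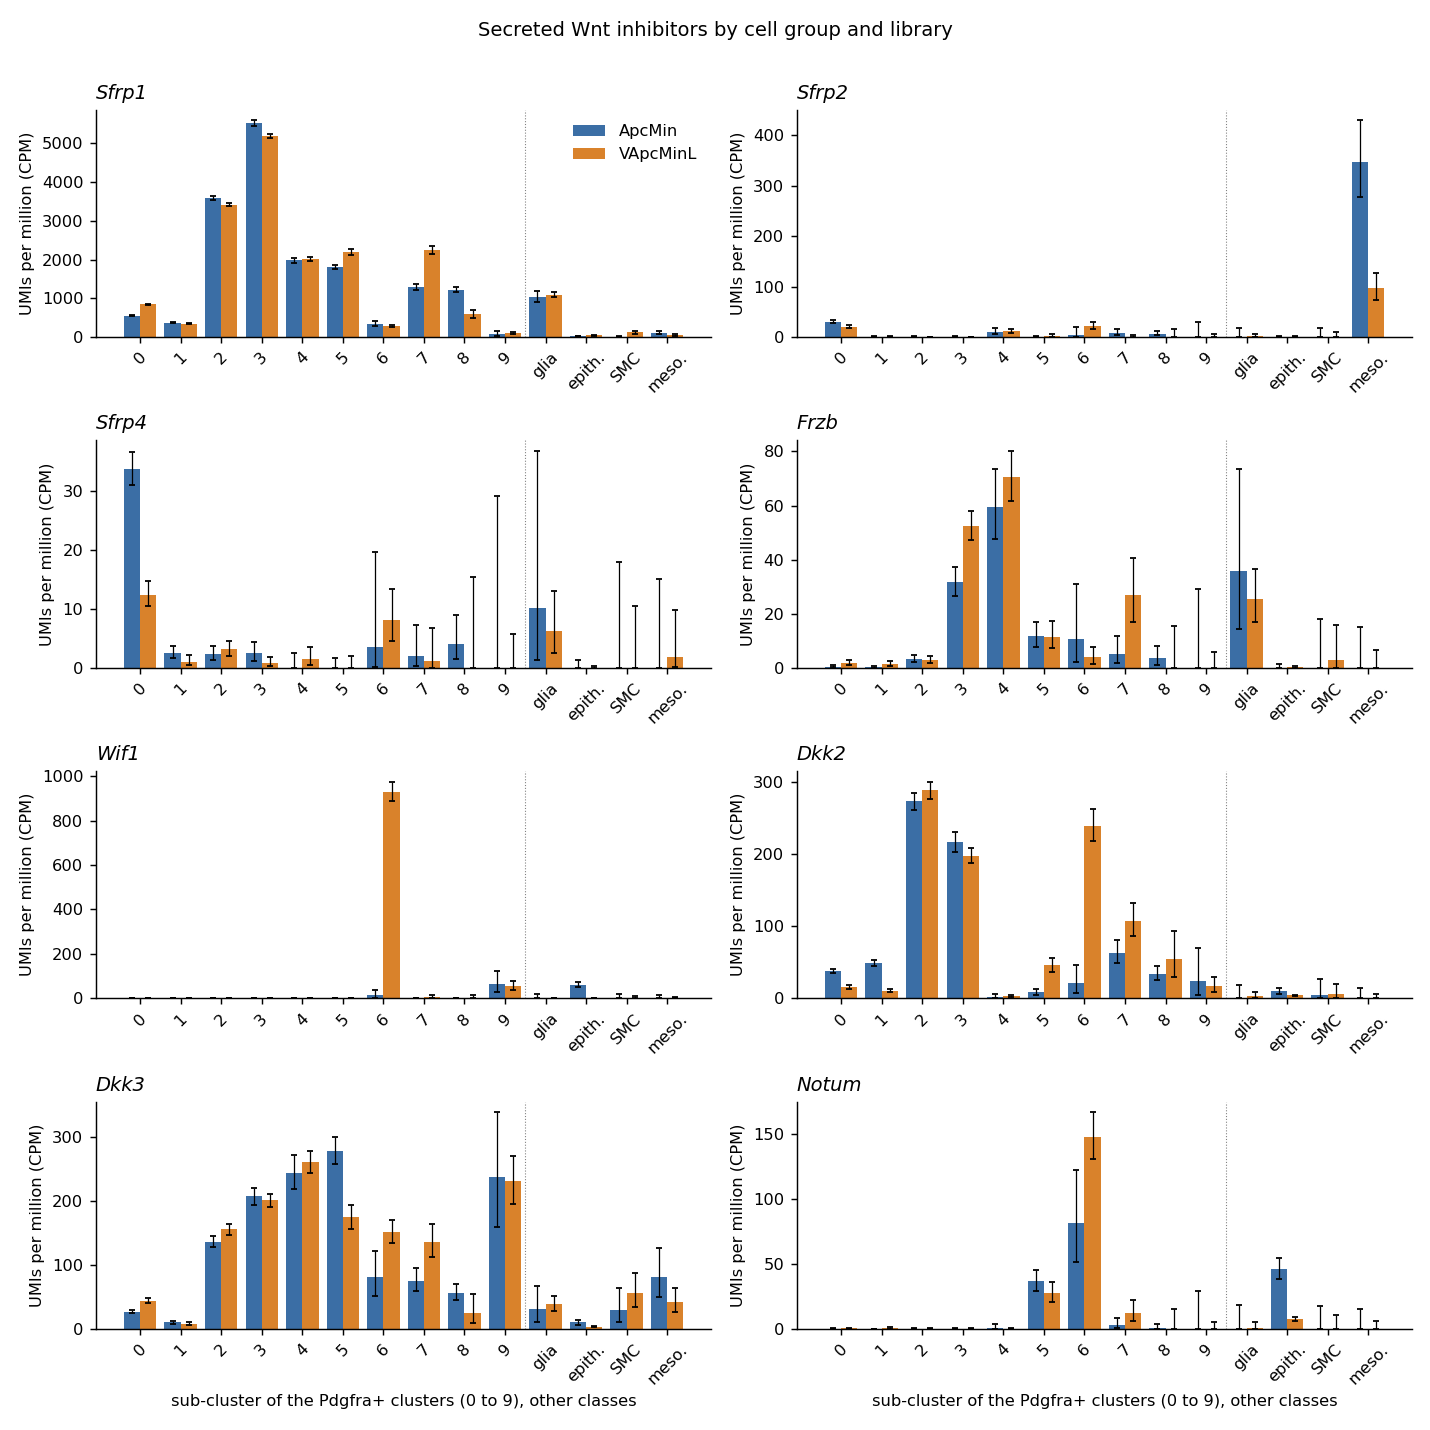
Level of each gene (CPM, counts per 1000000, on a linear axis of its own for each gene) in sub-clusters 0 to 9 of the Pdgfra+ clusters and, right of the dotted line, in enteric glia-, epithelial-, smooth muscle- (SMC) and mesothelial-like cells, with 95% Poisson intervals, for the ApcMin (blue) and VApcMinL (orange) libraries. *Sfrp1* peaks in sub-cluster 3 at 5526 and 5198 CPM, *Sfrp4* in sub-cluster 0, *Frzb* in sub-cluster 4, and *Wif1* stands at 929 CPM in sub-cluster 6 of VApcMinL against 14.1 CPM in ApcMin.

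*Sfrp1*, which encodes a frizzled-related Wnt-binding protein, was found in every stromal sub-cluster at very different levels. It was highest in sub-cluster 3 (*Cxcl13*, *Adamdec1*), at 5526 (5457 to 5595) CPM in ApcMin and 5198 (5146 to 5251) CPM in VApcMinL. The 359 ApcMin cells of this sub-cluster held between 6 and 319 *Sfrp1* UMIs with a median of 61, and the 771 VApcMinL cells between 0 and 347 with a median of 42. Nearly every cell of sub-cluster 3 was thus positive, all 359 in ApcMin and 770 of 771 in VApcMinL. Sub-cluster 2 (*Grem1*, *Ackr4*) followed with 3596 (3552 to 3639.5) CPM in ApcMin and 3421 (3382 to 3462) CPM in VApcMinL, and every cell had a UMI. Sub-clusters 4 and 5 were next, at 1977 and 2024 CPM and at 1802 and 2195 CPM, and their order differed between the libraries. Lower levels were found in sub-cluster 0 (551 and 841 CPM), sub-cluster 1 (369 and 339 CPM) and sub-cluster 6 (346 and 285 CPM), of which 1 and 6 had overlapping intervals in ApcMin. In VApcMinL, sub-cluster 6 (261 to 310.5 CPM) lay below the empty droplets (337 to 369 CPM) and the interval of sub-cluster 1 overlapped theirs, with a *Sfrp1* UMI in 57.5% and 69.6% of the cells. Sub-cluster 9 (*Bmp7*, *Bmp5*) was lowest, at 79.0 (37.9 to 145) CPM in ApcMin and 98.5 (75.9 to 126) CPM in VApcMinL, below the level in the empty droplets of both libraries, and *Sfrp1* was seen in 1 of its 10 ApcMin cells and 13 of its 69 VApcMinL cells. The empty-droplet level is that of free RNA alone. At the upper estimate of its share in the Pdgfra+ clusters, free RNA would bring 31.0 CPM of *Sfrp1* in ApcMin and 20.6 CPM in VApcMinL.

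*Sfrp2* and *Sfrp4*, relatives of *Sfrp1*, were concentrated in the *Pi16* cells of sub-cluster 0. This sub-cluster held 91.7% of the stromal *Sfrp2* UMIs in ApcMin and 71.3% in VApcMinL, and 90.2% and 68.8% of the *Sfrp4* UMIs. *Sfrp2* stood at 30.2 (27.7 to 32.9) CPM in ApcMin and 20.6 (18.003 to 23.6) CPM in VApcMinL, in 12.6% and 9.20% of the cells. *Sfrp4* stood at 33.8 (31.1 to 36.6) CPM in ApcMin and 12.4 (10.4 to 14.8) CPM in VApcMinL, in 20.4% and 9.46% of the cells. A finer clustering, at resolution 0.6, had both genes highest in a group led by *Efhd1*, *Dpp4* and *Anxa3*. In these 275 ApcMin and 140 VApcMinL cells *Sfrp2* reached 79.0 and 89.5 CPM, and *Sfrp4* 75.6 and 40.5 CPM. *Sfrp2* was detected in 33.5% and 33.6% of these cells and *Sfrp4* in 47.3% and 23.6%. Outside sub-cluster 0, *Sfrp2* was seen at 10.5 and 11.5 CPM in sub-cluster 4, and at 22.1 (15.9 to 30.03) CPM in sub-cluster 6 of VApcMinL. In sub-clusters 1, 2, 3, 5 and 9 *Sfrp2* had at most 8 UMIs in either library.

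*Frzb*, a frizzled-related protein first known from cartilage, was found in fewer cells than *Sfrp1*. It was highest in sub-cluster 4 (*Mmp10*, *Fgfr2*), at 59.5 (47.6 to 73.6) CPM in ApcMin and 70.4 (61.7 to 80.1) CPM in VApcMinL, in 42.6% and 38.3% of the cells. Sub-cluster 3 held 31.7 (26.7 to 37.3) CPM in ApcMin and 52.5 (47.3 to 58.0) CPM in VApcMinL, in 25.9% and 27.0% of the cells. The intervals of sub-clusters 3 and 4 did not overlap in either library. Sub-cluster 5 was at 11.7 and 11.5 CPM, and sub-clusters 0, 1 and 2 were at 0.188 to 3.18 CPM. None of the 79 cells of sub-cluster 9 had a *Frzb* UMI, and for its 69 VApcMinL cells the exact interval allows a share with a UMI of up to 5.21%.

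*Dkk2*, a Dickkopf protein that acts on Lrp5 and Lrp6, was highest in sub-clusters 2 and 3 and, in VApcMinL, also in sub-cluster 6. It was high in sub-cluster 2 (*Grem1*, *Ackr4*), at 274 (262 to 286) CPM in ApcMin and 289 (277 to 301) CPM in VApcMinL, and in sub-cluster 3, at 217 (203 to 231) CPM in ApcMin and 198 (188 to 208) CPM in VApcMinL. The shares of positive cells were 67.2% and 69.6% in sub-cluster 2 and 60.2% and 54.1% in sub-cluster 3. Sub-cluster 4, which also had *Sfrp1*, *Frzb* and *Dkk3*, held almost none: 3 *Dkk2* UMIs in 122 ApcMin cells and 9 in 334 VApcMinL cells, or 2.101 (0.433 to 6.14) CPM in ApcMin and 2.73 (1.25 to 5.19) CPM in VApcMinL. In sub-cluster 6 it stood at 21.2 (7.78 to 46.1) CPM in ApcMin and 239.7 (218 to 263) CPM in VApcMinL, with a UMI in 8.70% of 23 and 62.7% of 134 cells, so that in VApcMinL its level there was above that of sub-cluster 3. Sub-clusters 0, 1 and 5 were lower, at 38.1 and 15.7 CPM, 48.5 and 10.8 CPM, and 8.70 and 46.1 CPM, and both libraries are compared below.

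*Dkk3*, the divergent Dickkopf member, was found in many sub-clusters. It stood at 278 (257 to 301) CPM in sub-cluster 5 (*Scg2*, *Fibin*) of ApcMin and at 174 (156 to 194) CPM in VApcMinL. Sub-cluster 4 held 244 (219 to 271) CPM in ApcMin and 260.2 (243 to 278) CPM in VApcMinL, and sub-cluster 9 237 (159.9 to 338) CPM in ApcMin and 231 (195 to 271) CPM in VApcMinL. These 3 sub-clusters were not separated by their intervals in ApcMin, and in VApcMinL sub-cluster 5 lay below sub-clusters 4 and 9. Sub-cluster 3 was at 207 and 201 CPM and sub-cluster 2 at 136 and 156 CPM. The lowest levels were in sub-clusters 0 (26.8 and 44.4 CPM) and 1 (10.4 and 8.54 CPM), and the empty droplets had 18.8 and 30.6 CPM. All 10 ApcMin cells and 54 of 69 VApcMinL cells of sub-cluster 9 had a *Dkk3* UMI, while *Sfrp1* was lowest there.

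*Notum*, the Wnt-delipidating enzyme, was found in 2 stromal groups and rarely elsewhere. In sub-cluster 5 it stood at 37.0 (29.5 to 45.7) CPM in ApcMin and 27.7 (20.8 to 36.3) CPM in VApcMinL, with a UMI in 33.3% of 165 and 20% of 155 cells. In sub-cluster 6 (*Itgbl1*, *Thy1*, *Masp1*) it stood at 81.3 (51.5 to 122) CPM in ApcMin and 148 (131 to 167) CPM in VApcMinL, with a UMI in 39.1% of 23 and 60.4% of 134 cells. After every cell was thinned to 3000 UMIs, the shares were 9.70% and 9.03% in sub-cluster 5 and 13.04% and 32.1% in sub-cluster 6. Over sub-clusters 0 to 4 together, with 3024 ApcMin and 3268 VApcMinL cells, there were 4 and 9 *Notum* UMIs. Sub-cluster 5 also carried some pericyte genes, and their list summed to 3805 CPM in ApcMin and 2758 CPM in VApcMinL, the highest of the 10 sub-clusters. Most of that sum was *Rgs5*, at 2829 and 1933 CPM. *Abcc9* was seen in 90.9% and 85.2% of the cells. *Kcnj8* was seen in 78.8% and 65.2%, *Cspg4* in 57.0% and 41.3%, and *Ndufa4l2* in 35.2% and 20.6%. The rest of the list was rare: *Notch3* was seen in 3.64% and 5.16%, *Mcam* in 6.06% and 7.74%, and *Higd1b* in 1.21% and 1.94%.

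*Wif1* was found in few stromal cells. In VApcMinL, 97.0% of its stromal UMIs came from the 134 cells of sub-cluster 6, at 929 (886 to 974) CPM. The cells there ranged from 0 to 126 *Wif1* UMIs with a median of 8, 94 were positive and 59 held at least 10 UMIs. In ApcMin, 1 of the 23 cells of sub-cluster 6 was positive, with 4 UMIs, or 14.1 (3.85 to 36.2) CPM. The other stromal source was sub-cluster 9 (*Bmp7*, *Bmp5*, *Sox6*), which held 8 of the 12 stromal UMIs of ApcMin and 36 of the 1775 of VApcMinL, with 63.2 (27.3 to 125) CPM in ApcMin and 55.4 (38.8 to 76.7) CPM in VApcMinL, in 3 of 10 and 17 of 69 cells, and no positive cell held more than 5 UMIs. Its 2 libraries overlapped in their intervals. In sub-clusters 0 to 5 *Wif1* had no UMI in 3189 ApcMin cells and 12 UMIs in 3423 VApcMinL cells.

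Outside the Pdgfra+ clusters, members were found above the empty droplets in some cell groups. Enteric glia-like cells had *Sfrp1* at 1035 (898 to 1188) CPM in ApcMin and 1089 (1028 to 1152) CPM in VApcMinL, in 85.7% of 28 and 92.4% of 172 cells, and *Frzb* at 35.7 (14.3 to 73.5) CPM in ApcMin and 25.3 (16.8 to 36.6) CPM in VApcMinL. Their *Sfrp1* level was thus above that of sub-clusters 0, 1, 6 and 9 in both libraries. Mesothelial-like cells, which line the outside of the gut, had the highest *Sfrp2* level of any group, 347 (277 to 429) CPM in ApcMin and 97.5 (73.5 to 127) CPM in VApcMinL, in 7 of 7 and 12 of 34 cells. Smooth muscle-like cells had *Sfrp1* at 9.73 (1.18 to 35.1) CPM in ApcMin and 124 (90.4 to 167) CPM in VApcMinL, and *Dkk3* at 29.2 (10.7 to 63.5) CPM in ApcMin and 56.5 (34.5 to 87.3) CPM in VApcMinL. That *Sfrp1* level lay below the empty droplets of its library in both cases. The *Dkk3* intervals overlapped those of the empty droplets in both libraries (14.6 to 23.8 CPM in ApcMin and 26.0 to 35.8 CPM in VApcMinL). In the B-, T-, myeloid- and both endothelial-like classes *Sfrp1* stood at 151 to 577 CPM, with a UMI in 10.5 to 20.3% of the cells. The 10 cells with the most *Sfrp1* UMIs held 58.3 to 100% of those of each of these classes and libraries.

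Epithelial-like cells, present in spite of the sort, numbered 50 in ApcMin and 346 in VApcMinL and held *Notum* at 46.3 (38.9 to 54.9) CPM in ApcMin and 7.77 (6.42 to 9.32) CPM in VApcMinL and *Wif1* at 61.8 (53.1 to 71.5) CPM in ApcMin and 0.603 (0.276 to 1.14) CPM in VApcMinL. The log2 ratio of *Wif1* there, VApcMinL over ApcMin, was -6.68 (95% interval -7.83 to -5.72) on 180 and 9 UMIs, opposite in direction to that in the stroma below. The values came from few cells: 8 of 50 ApcMin and 21 of 346 VApcMinL cells had a UMI of either gene, and 3 and 2 cells had both. A single ApcMin cell held 172 *Wif1* and 71 *Notum* UMIs, together with 562 UMIs of *Epcam*, 113 of *Axin2* and 174 of *Nkd1*, the last 2 being feedback targets of Wnt signalling, and it had 259029 UMIs in all. In VApcMinL, 6 of the 9 *Wif1* UMIs lay in 1 cell, which had 21 UMIs of *Epcam* beside 181 of *Dcn* and 11 of *Pdgfra*, both fibroblast markers. Across the 8 cells *Axin2* stood at 169 CPM, against 18.7 CPM in the other 42, and across the 21 cells at 95.0 CPM, against 6.17 CPM in the other 325. *Lef1* followed the same split: 22 of the 22 epithelial *Lef1* UMIs of ApcMin and 26 of the 29 of VApcMinL lay in the cells with *Notum* or *Wif1*. The cells with either gene were deeper, with median UMIs of 111179 against 43415 in ApcMin and 45347 against 41851 in VApcMinL, and the part of depth in the split was not tested.

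The genes whose pattern was most like that of each member were taken from Pearson correlations of log2(CPM + 1) over 33 sums of cells, one for each sub-cluster or class and library with at least 50 cells, among 13661 genes. These sums share 2 libraries, so the correlations are a description. *Sfrp1* was most like *Fzd1* (r = 0.94), *Enpp5* (r = 0.94) and *Fam198b* (r = 0.93), the first of them a Frizzled receptor. *Dkk3* was most like *Mab21l2* (r = 0.95), *Mdk* (r = 0.92) and *Ptch1* (r = 0.91), of which *Ptch1* is the Hedgehog receptor. *Dkk2* was nearest to *Cpz* (r = 0.86), *Cgnl1* (r = 0.84) and *Prdm6* (r = 0.84), and *Frzb* to *Ncam1* (r = 0.87), *Bhlhe22* (r = 0.86) and *Ttyh1* (r = 0.85). For *Sfrp2* the nearest were *Prrx2* (r = 0.72), *Angpt4* (r = 0.70) and *Phex* (r = 0.66), and for *Sfrp4* *Serpina3c* (r = 0.79), *Efhd1* (r = 0.74) and *Ackr1* (r = 0.74). *Notum* was most like *Tpd52l1* (r = 0.82), *Ano1* (r = 0.75) and *Kcnq3* (r = 0.74), where *Ano1* encodes a calcium-gated chloride channel, and *Wif1* was most like *Igfbp2* (r = 0.76), *Upk1b* (r = 0.68) and *Gpld1* (r = 0.67). No member was among the 3 nearest genes of another.

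Detection of several members in the same cell was compared after each cell was thinned to 3000 UMIs, since deeper cells show more genes. No member was seen in 25.8% of the ApcMin and 17.3% of the VApcMinL Pdgfra+ cells, 1 member in 46.3% and 42.2%, and 2 or more in 27.99% and 40.5%. Without thinning, 2 or more members were seen in 56.7% and 63.5% of the cells. Of the 28 pairs of members, 9 were counted with an odds ratio above 1 in both libraries. They include *Wif1* with *Dkk3*, which had no finite odds ratio in ApcMin, where the 2 *Wif1*-positive cells also had *Dkk3*. *Wif1* with *Notum*, also among the 9, shared 1 cell in ApcMin. *Sfrp1* and *Frzb* were another of the 9: 95.6% of 68 *Frzb*-positive ApcMin cells and 97.0% of 166 in VApcMinL also had *Sfrp1*, with odds ratios of 10.5 and 9.79. The odds ratios were 3.82 and 4.603 for *Dkk2* with *Sfrp1*, 3.88 and 3.87 for *Dkk3* with *Sfrp1*, and 1.81 and 1.84 for *Dkk2* with *Dkk3*.

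The odds ratios of these 4 pairs were lower when computed within sub-clusters. Within sub-clusters the odds ratio of *Dkk2* with *Sfrp1* was 1.44 and 1.43, that of *Dkk2* with *Dkk3* 1.02 and 1.09, that of *Dkk3* with *Sfrp1* 1.39 and 1.51, and that of *Sfrp1* with *Frzb* 2.90 and 0.951. *Sfrp2* with *Sfrp4* had odds ratios of 8.92 and 14.2 over all Pdgfra+ cells and 3.87 and 5.39 within sub-clusters, on 10 and 5 cells with both. *Sfrp1* was less frequent in cells with *Sfrp2* than in cells without, with odds ratios of 0.272 and 0.324, which rose to 0.393 and 0.511 within sub-clusters. Even so, 37.0% and 53.3% of the *Sfrp2*-positive cells also had *Sfrp1*, and 72.5% and 79.2% did without thinning. Pairs that few cells shared rose too: *Sfrp2* with *Frzb* went from 0.911 and 0.992 to 20.8 and 5.10, on 1 and 2 cells with both, and *Wif1* with *Sfrp4* in VApcMinL from 3.36 to 194, on 3 cells. *Dkk2* and *Sfrp2* were together in none of the 3355 thinned ApcMin cells and in 4 VApcMinL cells. Without thinning, 27 and 18 cells had both, with odds ratios of 1.07 and 1.13 within sub-clusters. *Wif1* with *Notum* had an odds ratio of 53.4 in VApcMinL, against 1.53 within sub-clusters.

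**Figure D2:**
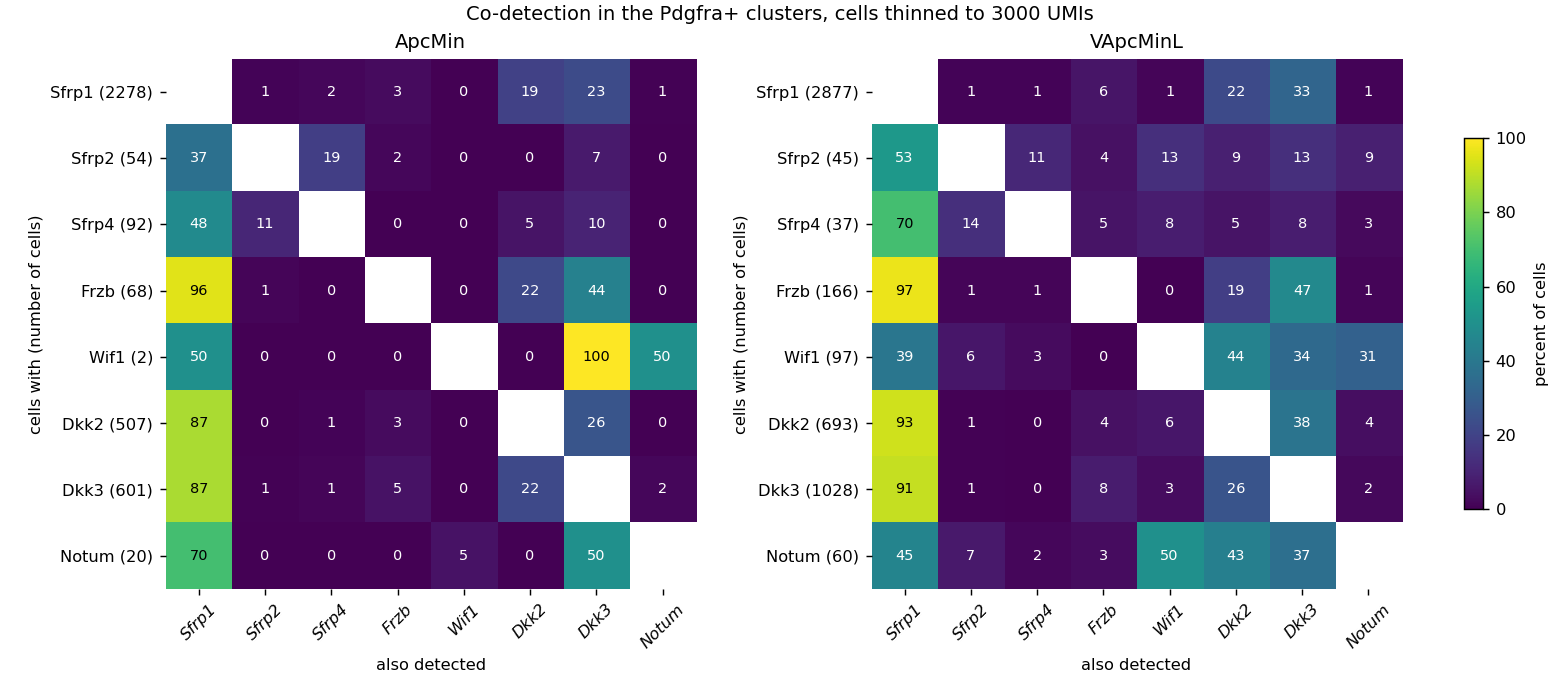
Co-detection in the Pdgfra+ clusters after thinning each cell to 3000 UMIs, ApcMin on the left and VApcMinL on the right. Each row is the cells with a UMI of the gene named (number of cells in brackets) and each tile gives the percent of them with a UMI of the column's gene; *Wif1* rests on 2 cells in ApcMin and 97 in VApcMinL.

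The comparison of the libraries addresses whether the stroma differs when the epithelium of ApcMin mice lacks *Lef1*. Over the Pdgfra+ clusters, 11770 genes had at least 200 UMIs in the 2 libraries together, and 2.65% of them were at least 2-fold higher in VApcMinL and 0.765% at least 2-fold lower. Of the 8 members, 3 (*Wif1*, *Notum* and *Frzb*) were at least 2-fold higher and 1 (*Sfrp4*) at least 2-fold lower. The median size of the log2 ratio was 1.08 over the members and 0.18 over all 11770 genes. Since the members were listed with results of these data known, these counts are a description. Fewer cells of a type and fewer transcripts per cell cannot be told apart in such summed values, so values by sub-cluster are given after them.

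*Wif1* stood at 0.258 (0.133 to 0.451) CPM in ApcMin and 42.5 (40.6 to 44.6) CPM in VApcMinL, on 12 and 1775 UMIs, a log2 ratio of VApcMinL over ApcMin of 7.37 (95% interval 6.56 to 8.32), or 165-fold. *Notum* stood at 2.49 (2.06 to 2.99) CPM in ApcMin and 8.29 (7.44 to 9.22) CPM in VApcMinL, with a log2 ratio of 1.73 (95% interval 1.43 to 2.05). *Frzb* stood at 6.45 (5.74 to 7.22) CPM in ApcMin and 17.1 (15.9 to 18.4) CPM in VApcMinL, a log2 ratio of 1.41 (95% interval 1.21 to 1.61). All 3 were higher in VApcMinL. *Sfrp4* was at 14.1 (13.03 to 15.2) CPM in ApcMin and 4.602 (3.97 to 5.30) CPM in VApcMinL and *Sfrp2* at 12.4 (11.4 to 13.4) CPM in ApcMin and 7.36 (6.56 to 8.23) CPM in VApcMinL, with log2 ratios of -1.61 (95% interval -1.85 to -1.38) and -0.75 (95% interval -0.96 to -0.55). The other 3 were within 2-fold: the log2 ratio was 0.60 (95% interval 0.54 to 0.66) for *Dkk3*, 0.44 (95% interval 0.43 to 0.45) for *Sfrp1* and 0.30 (95% interval 0.24 to 0.36) for *Dkk2*.

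**Figure D3:**
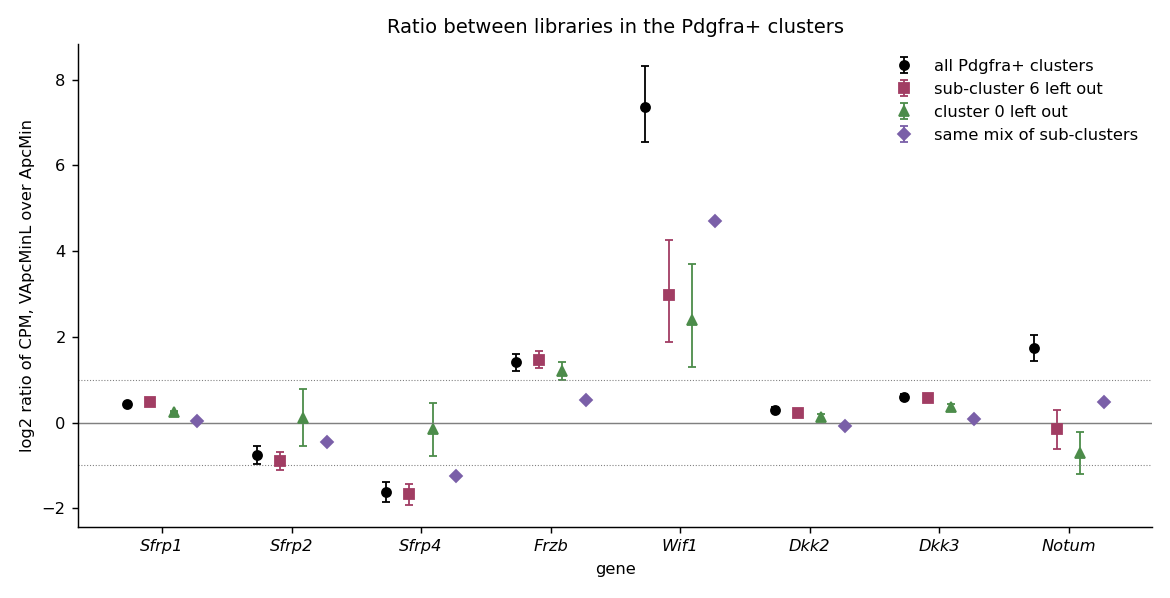
Log2 ratio of CPM, VApcMinL over ApcMin, for each gene in the Pdgfra+ clusters: all of them (black), without sub-cluster 6 (red), without cluster 0 (green), and with both libraries given the same mix of sub-clusters (purple, no interval). Bars are 95% intervals for counting error and dotted lines mark 2-fold; *Notum* is above 0 in all Pdgfra+ clusters (1.73) and below it without sub-cluster 6 (-0.16).

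Several of these ratios were smaller once the libraries were given the same mix of cells. Sub-clusters 3 and 4, which held most *Frzb*, made up 359 and 122 of the 3355 ApcMin cells but 771 and 334 of the 3708 VApcMinL cells. With both libraries given the same mix of sub-clusters, the log2 ratio of *Frzb* was 0.54, that of *Dkk3* 0.088, that of *Sfrp1* 0.029 and that of *Dkk2* -0.083. *Sfrp2* was at -0.44, *Sfrp4* at -1.25, *Notum* at 0.48 and *Wif1* at 4.71. Sub-cluster 6 held 23 of the ApcMin and 134 of the VApcMinL cells. Without it, the ratio of *Notum* was -0.16 (-0.62 to 0.30) and that of *Wif1* 2.97 (1.89 to 4.25). With 1 library each, a difference of genotype and a difference between 2 preparations in their mix of cells cannot be told apart.

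In sub-clusters 2, 3, 4 and 5, none of the members with at least 200 UMIs in the 2 libraries together (3, 4, 3 and 2 of them) was 2-fold apart. The share of all genes past 2-fold was 0.733% in sub-cluster 2, 1.73% in sub-cluster 3, 2.3% in sub-cluster 4 and 2.69% in sub-cluster 5. *Dkk2*, for example, had log2 ratios of 0.079 (95% interval -0.0075 to 0.17) and -0.13 (95% interval -0.25 to -0.013) in its main sources, sub-clusters 2 and 3. *Sfrp1* had -0.072 (95% interval -0.10 to -0.047) and -0.088 (95% interval -0.11 to -0.065) there. *Frzb* was at 0.73 (95% interval 0.45 to 1.02) in sub-cluster 3 and 0.24 (95% interval -0.12 to 0.62) in sub-cluster 4. *Notum* in sub-cluster 5, on 85 and 53 UMIs, was at -0.41 (95% interval -0.94 to 0.10), while *Dkk2* in sub-cluster 5 was at 2.40 (95% interval 1.69 to 3.18) on 20 and 88 UMIs. Few cells carried that *Dkk2* value: 8 of 165 and 15 of 155 cells were positive, and 10 cells held 93.2% of the VApcMinL UMIs.

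In sub-cluster 0, 2 of 5 measured members were at least 2-fold lower in VApcMinL, where 2.04% of 9229 genes were 2-fold apart in either direction. *Sfrp4* was at -1.44 (95% interval -1.72 to -1.17) and *Dkk2* at -1.27 (95% interval -1.53 to -1.03). *Sfrp2* was at -0.55 (95% interval -0.78 to -0.32), *Sfrp1* at 0.61 (95% interval 0.57 to 0.65) and *Dkk3* at 0.73 (95% interval 0.54 to 0.92), all within 2-fold. In the *Efhd1* and *Dpp4* cells of the finer clustering, *Sfrp2* was 79.0 (71.4 to 87.3) and 89.5 (76.9 to 104) CPM, overlapping between the libraries, while *Sfrp4* was 75.6 (68.1 to 83.6) and 40.5 (32.2 to 50.4) CPM, which did not overlap. In sub-cluster 1, *Dkk2* was the 1 of 2 measured members past 2-fold, at -2.17 (95% interval -2.55 to -1.82), where 1.33% of 8118 genes were past it.

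*Dkk2* in sub-cluster 0 of ApcMin, and in sub-cluster 1 of both libraries, was higher in cells where regional genes were detected. Of 15 genes that mark positions along the gut mesenchyme, 7 were measured, and 4 were at least 2-fold lower in VApcMinL: *Barx1* (log2 ratio -4.15), which patterns the stomach, *Six2* (-3.65), *Eya4* (-3.01) and *Isl1* (-1.97). *Nkx2-3*, expressed along the midgut and hindgut, was at 0.77. In sub-cluster 0 of ApcMin, *Dkk2* stood at 108 (99.1 to 118) CPM in the 327 cells with a UMI of 1 of the 4 genes and at 11.9 (10.0 to 13.9) CPM in the 823 cells without. In VApcMinL the values were 25.04 (15.1 to 39.1) CPM in 57 cells and 15.03 (12.7 to 17.7) CPM in 715 cells. In sub-cluster 1 they were 80.3 (72.8 to 88.4) CPM in 413 and 18.3 (14.9 to 22.2) CPM in 474 cells of ApcMin, and 22.2 (13.2 to 35.1) CPM in 73 and 9.20 (6.93 to 11.98) CPM in 637 cells of VApcMinL. The intervals of cells with and without a regional UMI were apart except in sub-cluster 0 of VApcMinL, where they overlapped. Cells with one were fewer in VApcMinL. In sub-cluster 3 the order was the opposite: 94.4 (64.6 to 133) CPM in 23 cells with a regional UMI and 227 (212 to 241) CPM in 336 without in ApcMin, and 112 (66.5 to 177) CPM in 12 and 199.7 (189 to 210.3) CPM in 759 cells of VApcMinL.

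Among the cells without a regional UMI, the log2 ratio of *Dkk2* was 0.34 (0.0047 to 0.68) in sub-cluster 0, the opposite direction to that in all its cells, and -0.99 (-1.49 to -0.50) in sub-cluster 1. Among the cells with one it was -2.11 (-2.86 to -1.45) and -1.86 (-2.62 to -1.18). The 4 genes that split the cells were taken because they were 2-fold apart between these same libraries, so these ratios are a description. Because deeper cells show a regional UMI more readily, the cells were also thinned to 3000 UMIs. *Dkk2* then stood at 85.4 (63.8 to 112) against 21.1 (16.1 to 27.2) CPM in sub-cluster 0 and 99.2 (78.0 to 124) against 33.1 (25.4 to 42.3) CPM in sub-cluster 1 of ApcMin, and at 26.7 (3.23 to 96.3) against 12.5 (8.30 to 18.1) and 41.7 (11.4 to 107) against 10.8 (6.78 to 16.4) CPM in VApcMinL, on 25 and 32 cells with a regional UMI. The thinned intervals overlapped in both sub-clusters of VApcMinL and in neither of ApcMin. The length of gut that each library sampled is not given in the sources used here, and region and genotype cannot be told apart.

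**Figure D4:**
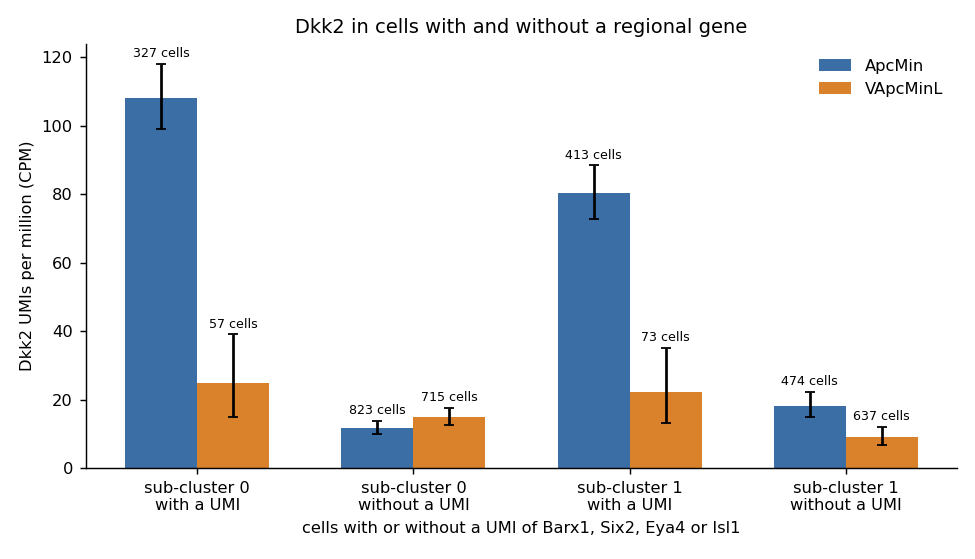
*Dkk2* level (counts per 1000000, linear axis from 0) in cells of sub-clusters 0 and 1 with or without a UMI of *Barx1*, *Six2*, *Eya4* or *Isl1*, in ApcMin (blue) and VApcMinL (orange), with 95% Poisson intervals and the number of cells above each bar. The ApcMin cells with a regional UMI stand at 108 and 80.3 CPM, above the other 6 bars.

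Sub-cluster 6 (*Itgbl1*, *Thy1*, *Masp1*) held the 2 largest ratios among the measured members of sub-clusters 0 to 6. It had 5 measured members, of which *Wif1* and *Dkk2* were at least 2-fold higher in VApcMinL, while 10.5% of its 1566 measured genes were 2-fold apart, a larger share than in the other sub-clusters. *Wif1* was at 6.04 (95% interval 4.68 to 7.92), on 4 and 1721 UMIs, and *Dkk2*, on 6 and 444 UMIs, at 3.50 (95% interval 2.37 to 4.95). *Notum* was at 0.86 (95% interval 0.25 to 1.55), *Dkk3* at 0.90 (95% interval 0.28 to 1.58) and *Sfrp1* at -0.28 (95% interval -0.59 to 0.046). The cells of the 2 libraries were of like depth, with median UMIs of 12530 in ApcMin and 14145 in VApcMinL. They differed in the regional genes: a UMI of *Barx1*, *Six2*, *Eya4* or *Isl1* was seen in 12 of 23 ApcMin and 17 of 134 VApcMinL cells. The part of region in these ratios was not tested.

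Most VApcMinL cells of sub-cluster 6 carried more than 1 of *Wif1*, *Notum* and *Dkk2*. Of the 134 cells, 94 had *Wif1*, 84 *Dkk2* and 81 *Notum*, 48 (35.8%, 95% interval 27.7 to 44.6%) had all 3 and 16 had none. Of the 23 ApcMin cells, 1 had *Wif1*, 2 *Dkk2* and 9 *Notum*, none had all 3, and 13 (56.5%, 34.5 to 76.8%) had none of them. With none of 23, a share of cells with all 3 of up to 14.8% is allowed by the exact binomial interval. These shares use cells without thinning, and their intervals cover the counting of cells within 1 library, not a difference between genotypes. Within the 134 cells, *Dkk2* was found with *Wif1* (68 cells, odds ratio 3.92) and with *Notum* (61 cells, odds ratio 3.98), and *Wif1* with *Notum* (60 cells, odds ratio 1.60). After thinning to 3000 UMIs the 3 odds ratios were 2.34, 2.33 and 1.22.

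**Figure D5:**
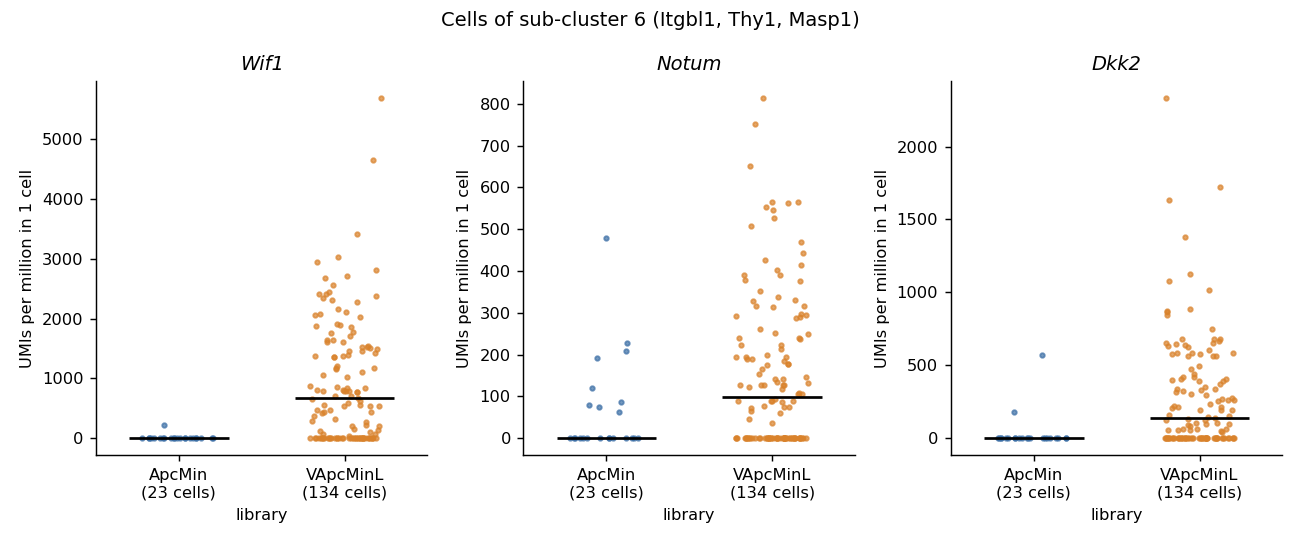
*Wif1*, *Notum* and *Dkk2* in single cells of sub-cluster 6 (counts per 1000000 in 1 cell, linear axes), 23 cells of ApcMin (blue) and 134 of VApcMinL (orange), with the median as a black bar and points spread sideways for sight. In ApcMin 1, 9 and 2 cells lie above 0, and in VApcMinL 94, 81 and 84 do.

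The identity of sub-cluster 6 was checked against the marker lists. *Pdgfra* was found in 99.4% of its cells and all 8 fibroblast markers were detected. Of the smooth muscle markers, *Mylk* was the most frequent, in 73.9% of ApcMin and 86.6% of VApcMinL cells. *Des* was seen in 65.2% and 72.4%, *Acta2* in 13.04% and 46.3%, *Tagln* in 8.70% and 29.1%, and *Myh11* in 0% and 1.49%. Of the pericyte markers, *Abcc9* was seen in 56.5% and 32.1%, *Ndufa4l2* in 65.2% and 21.6%, and *Rgs5* in 0% and 4.48%. Of a list for subepithelial fibroblasts, *Itgbl1* was seen in 100% and 80.6%, *Sox6* in 34.8% and 38.1%, and *F3* in 30.4% and 26.1%. *Bmp7* was seen in 0% and 23.9%, *Bmp5* in 0% and 8.96%, and *Foxl1* in 0% and 6.72%. *Ednrb* was seen in 4.35% and 2.99%, and *Bmp3* in 0% of both. Of a list for adventitial-type fibroblasts, *Pi16* was seen in 65.2% and 30.6%, and *Ackr3* in 56.5% and 48.5%. *Sema3c* was seen in 34.8% and 32.8%, *Cd55* in 30.4% and 10.4%, and *Dpp4* in 0% and 4.48%. When the libraries were clustered without integration, 144 of the 157 cells fell in a cluster of 246 cells that the marker rule named smooth muscle-like, while 151 of 157 stayed together when the Pdgfra+ cells were reclustered without integration. In the clustering of all cells without integration, the log2 ratio of *Notum* over the Pdgfra+ clusters was -0.25 (-0.73 to 0.22) and that of *Wif1* 2.73 (1.64 to 4.03). Epithelial transcripts differed between the libraries too: the epithelial marker list summed to 7.49 to 78.4 CPM over the 10 sub-clusters of ApcMin and 113 to 195 CPM over those of VApcMinL. In sub-cluster 6 of VApcMinL it was at 120.4 CPM, and epithelial-like cells of that library had *Wif1* at 0.603 CPM. Empty droplets had *Wif1* at 1.38 CPM in ApcMin and 8.53 CPM in VApcMinL. The part of epithelial transcripts and free RNA in the *Wif1* level of sub-cluster 6 was not tested. In sub-cluster 6 the smooth muscle list summed to 473 and 771 CPM, the plasma list to 1537 and 2920.0 CPM and the erythroid list to 8127 and 3080.3 CPM in ApcMin and VApcMinL, and their part in the ratios was not tested.

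In the Pdgfra+ clusters, 34 other genes of the Wnt pathway were measured. Of these, 1 (2.94%) was at least 2-fold higher in VApcMinL and 1 (2.94%) at least 2-fold lower, beside 2.65% and 0.765% of all genes. Of 11 other secreted inhibitors, 3 had at least 200 UMIs and none was 2-fold apart: *Igfbp4* at a log2 ratio of -0.14, *Trabd2b* at -0.094 and *Apcdd1* at 0.26. Of 19 Wnt ligands, 7 were measured. *Wnt4* was higher, at 1.02 (0.90 to 1.14), and *Wnt10b* lower, at -2.03 (-2.50 to -1.59), while the abundant *Wnt5a*, a ligand best known outside the β-catenin branch, was at -0.53 and *Wnt11* at 0.021. None of the R-spondins, which raise Wnt signalling through Lgr receptors, was 2-fold apart: *Rspo1* was at -0.12, *Rspo2* at 0.12 and *Rspo3* at -0.32. None of 14 measured receptors and co-receptors was either, with *Ryk* at 0.044, *Lrp6* at 0.016 and *Fzd1* at 0.21. The 7 measured genes of a list of feedback targets and Lef/Tcf factors ranged from -0.46 to 0.53. *Axin2*, the usual reporter of β-catenin activity, was at -0.18. The transcription factor genes *Tcf7l2* and *Tcf7l1* were at -0.26 and -0.46. The medians of these lists lay between -0.12 and 0.23, beside 0.0044 over all 11770 genes. The genes induced when tissue is dissociated, all 10 of them measured, had a median of 0.11, with *Egr1* at 0.078, *Fos* at 0.14 and *Junb* at -0.054.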

How the data were processed

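The cells of 2 libraries, 1 per genotype, were profiled with 10x Genomics 3′ chemistry (v3). The deposited values are raw UMI counts per gene and barcode, which the authors made with Cell Ranger against the mm10 genome. The methods name release 2.1.1 and the file headers 3.1.0, and the difference was not resolved. No column belonged to no sample (0). Barcodes with at least 3000 UMIs and at most 20% mitochondrial UMIs were kept, with no upper limit. The libraries were integrated by canonical correlation anchors (30 dimensions) and clustered with Seurat 5.3.0 in R 4.3.3 (20 principal components, 20 neighbours, resolution 0.2, and 0.3 for sub-clusters), with the 8 genes left out of the anchor genes. Clusters were classed by marker lists.

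UMIs were summed over the cells of a library and divided by all their UMIs (CPM). Intervals at 95% are exact Poisson for CPM, Clopper-Pearson for shares and the exact conditional binomial for ratios. They cover counting error only. A gene counted as measured with at least 200 UMIs over both libraries and was set apart at 2-fold. For a share of 0 the upper bound of the exact interval is given, which limits cells with a UMI. For co-detection each cell was thinned to 3000 UMIs. An odds ratio compares cells with both, 1 or neither gene. Doublets were scored with Scrublet in scanpy 1.11.5 at 0.8% per 1000 cells (348 ApcMin and 345 VApcMinL cells) and kept, apart from an alternative without them. Intervals came from scipy 1.17.1 under Python 3.11.15 with numpy 2.4.6. Tables used pandas 2.3.3 and plots matplotlib 3.10.9. The scripts were tested on simulated data.

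The 8 genes and the Wnt, regional and dissociation lists were chosen with earlier results of these data known. Named were the 8 genes, the 3 genes most correlated with each, and, of each list, the 3 with the most UMIs and those past 2-fold. Genes of the regional list and single cells were also named after their values were seen. The alternatives tried were other UMI, mitochondrial and gene-number limits, thinning, doublets, integration, resolution, membership, weighting and free RNA.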

Additional observations from a re-analysis of the deposited data

How the results depend on the processing

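Each genotype had 1 library, so the limits are those of a comparison of 2 preparations, in which genotype, mice, region of gut and processing cannot be told apart. Intervals cover counting error, and at this depth genes with few UMIs, such as *Wif1* in ApcMin (12 UMIs in the Pdgfra+ clusters), have wide ones. Sub-cluster 6 rests on 23 ApcMin cells. No paired analysis was possible because no test was run on 1 library of each genotype, and no replicate could be left out. Of 128 log2 ratios over the Pdgfra+ clusters, under 16 other settings for each gene, 89 moved by less than the counting interval and 39 by more, of which 5 changed sign. *Wif1*, *Dkk3*, *Sfrp1*, *Sfrp4* and *Frzb* kept their direction in all 16 settings, *Dkk2* and *Sfrp2* changed sign in 1 each and *Notum* in 3. Without integration the ratios were *Wif1* 2.73, *Notum* -0.25, *Dkk2* 0.21 and *Sfrp1* 0.49. With membership by a UMI each of *Pdgfra* and *Dcn* they were *Wif1* 3.34, *Notum* 1.02, *Dkk2* 0.23 and *Sfrp1* 0.39. Thinned to 3000 UMIs, they were *Dkk3* 0.69 and *Sfrp1* 0.39. Without doublet-scored cells, as the mean of each cell's CPM and with free RNA subtracted, *Sfrp1* was at 0.47, 0.42 and 0.45, and with free RNA subtracted *Wif1* was at 8.72. Chosen after seeing the data were the next 4 settings. Without sub-cluster 6 the ratios were *Wif1* 2.97, *Notum* -0.16, *Dkk2* 0.21 and *Sfrp1* 0.49. Without cluster 0 they were *Wif1* 2.40, *Notum* -0.71, *Dkk2* 0.13, *Dkk3* 0.36, *Sfrp1* 0.26, *Sfrp2* 0.12, *Sfrp4* -0.16 and *Frzb* 1.2003. With the same mix of sub-clusters they were *Wif1* 4.71, *Notum* 0.48, *Dkk2* -0.083, *Dkk3* 0.088, *Sfrp1* 0.029, *Sfrp2* -0.44, *Sfrp4* -1.25 and *Frzb* 0.54. Without cells that had a regional UMI they were *Notum* 1.25, *Dkk3* 0.37, *Sfrp1* 0.25, *Sfrp4* -1.37 and *Frzb* 1.1951. The share of a gene's UMIs in the Pdgfra+ clusters, over both libraries, moved without integration to *Wif1* 2.72%, *Notum* 21.8%, *Dkk2* 90.3%, *Dkk3* 90.7%, *Sfrp1* 95.1%, *Sfrp2* 77.0% and *Sfrp4* 92.6%, where most cells of sub-cluster 6 lay in a smooth muscle-like cluster. Thinned, the shares were *Wif1* 98.7%, *Notum* 88.5%, *Dkk2* 96.2%, *Dkk3* 94.6%, *Sfrp1* 95.8%, *Sfrp2* 85.6%, *Sfrp4* 96.9% and *Frzb* 91.2%. Without doublet-scored cells they were *Dkk2* 97.9%, *Dkk3* 96.5%, *Sfrp1* 98.6%, *Sfrp2* 84.9%, *Sfrp4* 98.5% and *Frzb* 95.7%. With a mitochondrial limit of 10% they were *Dkk2* 95.6% and *Sfrp1* 96.0%, and with at least 5000 UMIs *Sfrp1* 95.8%. At resolution 0.6 the highest level in any sub-cluster, over both libraries, was *Dkk2* 299 CPM, *Dkk3* 273 CPM, *Sfrp1* 5560.0 CPM, *Sfrp2* 82.0 CPM, *Sfrp4* 65.5 CPM and *Frzb* 75.5 CPM. The number of pairs with an odds ratio above 1 in both libraries was 10 (cells not thinned, with *Wif1* and *Dkk3* again counted), 9 (doublet-scored cells left out), 7 (at least 2 UMIs).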
